A study of Homo sapiens with 2 samples.

Results

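The mitochondrial ribosomal protein genes were taken as all protein-coding genes of the GENCODE annotation on hg19 whose symbol is MRPL or MRPS followed by a number, with or without a final letter. The symbol alone chose them, and 78 of 19894 protein-coding genes with a canonical transcription start site (TSS) met it. A peak was counted for a gene where any base of it lay within 1 kb of that TSS, and where several did, the one with the highest score was used.

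LSD1 (KDM1A), an enzyme of corepressor complexes that erases mono- and dimethylation of lysine 4 on histone H3, was profiled by chromatin immunoprecipitation and sequencing (ChIP-seq). PC-3M-luc cells, an established human prostate carcinoma line that carries a luciferase reporter and does not need androgen, were grown in medium with serum, at passages 17 to 20 and with a genotype labelled as control. LSD1 was precipitated with an Abcam antibody in 1 library, and 1 input library of the same cells was made, so replicate error could not be estimated and no p-values are given. The authors' list holds 20110 peaks, with a median score of 206 and a median width of 1649 bp, and the read depth of both libraries is unknown.

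Mitochondria translate the few proteins that their own DNA encodes on ribosomes of their own. The ribosomal RNAs of these mitoribosomes come from mitochondrial DNA, while all their proteins are encoded in the nucleus, made in the cytosol and imported. The products are core subunits of the respiratory chain and of ATP synthase, so the MRP genes (for mitochondrial ribosomal protein) are expressed in nearly all cells. Many MRP proteins descend from bacterial ribosomal proteins, and others are found in mitochondria alone.

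The stretches below are from promoters of 4 members that carried high-scoring LSD1 peaks, and show the elements by which promoters of nuclear genes for mitochondria are often recognised. They were read from the GRCh37 reference on the strand of the gene, outside annotated exons, and capitals mark the element of the ETS family, CCGGAAG, or of NRF1, GCGCANGCG, on either strand. MRPL40 (chr22:19420017-19420067, plus strand) and MRPL23 (chr11:1968458-1968507, plus strand) hold an ETS element, as does MRPL18 on the opposite strand (chr6:160211433-160211498, plus strand). MRPL36 (chr5:1800012-1800100, minus strand) holds an NRF1 element on the opposite strand.
MRPL40: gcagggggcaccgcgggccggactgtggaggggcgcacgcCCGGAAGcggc
MRPL23: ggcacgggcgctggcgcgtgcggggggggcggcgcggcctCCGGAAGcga
MRPL18: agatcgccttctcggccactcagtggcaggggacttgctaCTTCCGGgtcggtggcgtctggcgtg
MRPL36: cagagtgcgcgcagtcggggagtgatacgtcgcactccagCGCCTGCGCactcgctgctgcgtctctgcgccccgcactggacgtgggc

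Nearly every MRP promoter lay under an LSD1 peak. Of the 78 members, 77 (98.7%, exact 95% binomial interval 93.1 to 100) had a peak within 1 kb of the TSS, against 55.6% of all protein-coding genes, the members included. The canonical TSS itself was covered in 77 of the 78 (98.7%), against 54.2% of all protein-coding genes. No member had its nearest peak between the TSS and the 1 kb limit. Of all protein-coding genes with a peak, 10780 of 11063 had the TSS covered, so cover of the TSS was no trait particular to the members. The member without a peak, MRPL45, had its nearest one 53827 bp away, at the promoter of SOCS7. Intervals cover counting error over genes only.

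The 77 genes lay under 76 peaks, since MRPL46 and MRPS11 share one. Subunit and lineage were assigned from general knowledge of mitoribosome structure, not from a reference table. All 51 large-subunit members except MRPL45 had a peak, as did all 26 small-subunit members. The remaining member, MRPS36, whose product is now assigned to the oxoglutarate dehydrogenase complex and not to the ribosome, had a peak with a score of 355.16. Among members with a counterpart in bacterial ribosomes 46 of 46 had a peak, and among those particular to mitochondria 30 of 31. At or above the median score of the whole list, 68 members (87.2%) had a peak, against 43.5% of all protein-coding genes.

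The members' CpG content stood close to that of all genes or above it, depending on the limits set. A promoter counted as CpG-rich if, over 1000 bp centred on the TSS, GC exceeded 55% and CpG dinucleotides exceeded 0.65 of the number that base content predicts (the CpG ratio). By this measure 47 of 78 members (60.3%) were CpG-rich, against 56.6% of all protein-coding genes. Of the CpG-rich members 46 of 47 had a peak, against 77.1% of all CpG-rich promoters. Of the other members all 31 had one (interval 88.8 to 100), against 27.7% of all promoters that were not CpG-rich. Those 31 members were not depleted of CpG, with a median ratio of 0.714 and a median GC content of 53.2%, against 0.336 and 52.6% over all promoters of that class. With the looser limits of 50% GC and a ratio of 0.6, 67 members (85.9%) were CpG-rich, against 64.9% of all protein-coding genes. By those limits 11 members fell outside and all 11 had a peak, against 17.6% of all promoters outside those limits. Expression of the genes was not measured in these files, so the share among expressed genes alone is not analysed here.

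**Figure D1:**
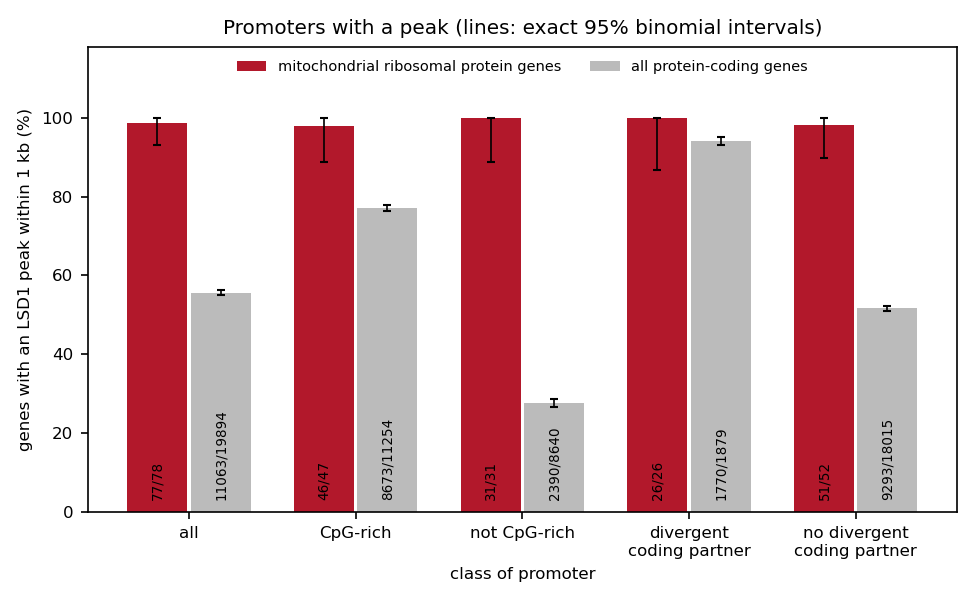
Share of genes with an LSD1 peak within 1 kb of the canonical TSS (vertical axis, percent) by class of promoter, for the mitochondrial ribosomal protein genes (red) and all protein-coding genes (grey); lines are exact 95% binomial intervals and the fractions in the bars are gene counts. The red bars lie between 97.9% and 100% in every class shown, while the grey bars range from 27.7% to 94.2%.

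MRPL45 encodes the large-subunit protein that anchors the mitoribosome to the inner membrane beside the exit of the peptide tunnel. Its TSS lies on chromosome 17 at position 36453134, and its promoter was CpG-rich, with a GC content of 55.7%. Only 34.5% of the 32-base words within 1 kb of this TSS occur once in the reference genome, the lowest share of any member, against a median of 98.2% over the 78. The next lowest was MRPS17 at 63.8%, which had a peak with a score of 434.72. Towards lower coordinates, MRPL45 had no peak for 449290 bp. How the authors treated reads with several matches is not given in the sources used here, and the part of repeated sequence in the missing peak was not tested.

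The scores of the members' peaks spread over much of the range of the list. Scores are the authors' own, one for each peak, and are used here for order within the list alone. The member median was 639 (interval from ranks 463 to 843), with quartiles at 372 and 1063.1. All protein-coding genes with a peak had a median of 465 and quartiles at 232 and 841. Of the 77 members 31 (40.3%) lay above the upper quartile of those genes, and 10 (13%) lay below the lower one. The lowest member score, 161.6, is above the lowest of the list, 50. The median width was 1890 bp in members (interval 1641 to 2300), against 1955 bp in all protein-coding genes with a peak.

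**Figure D2:**
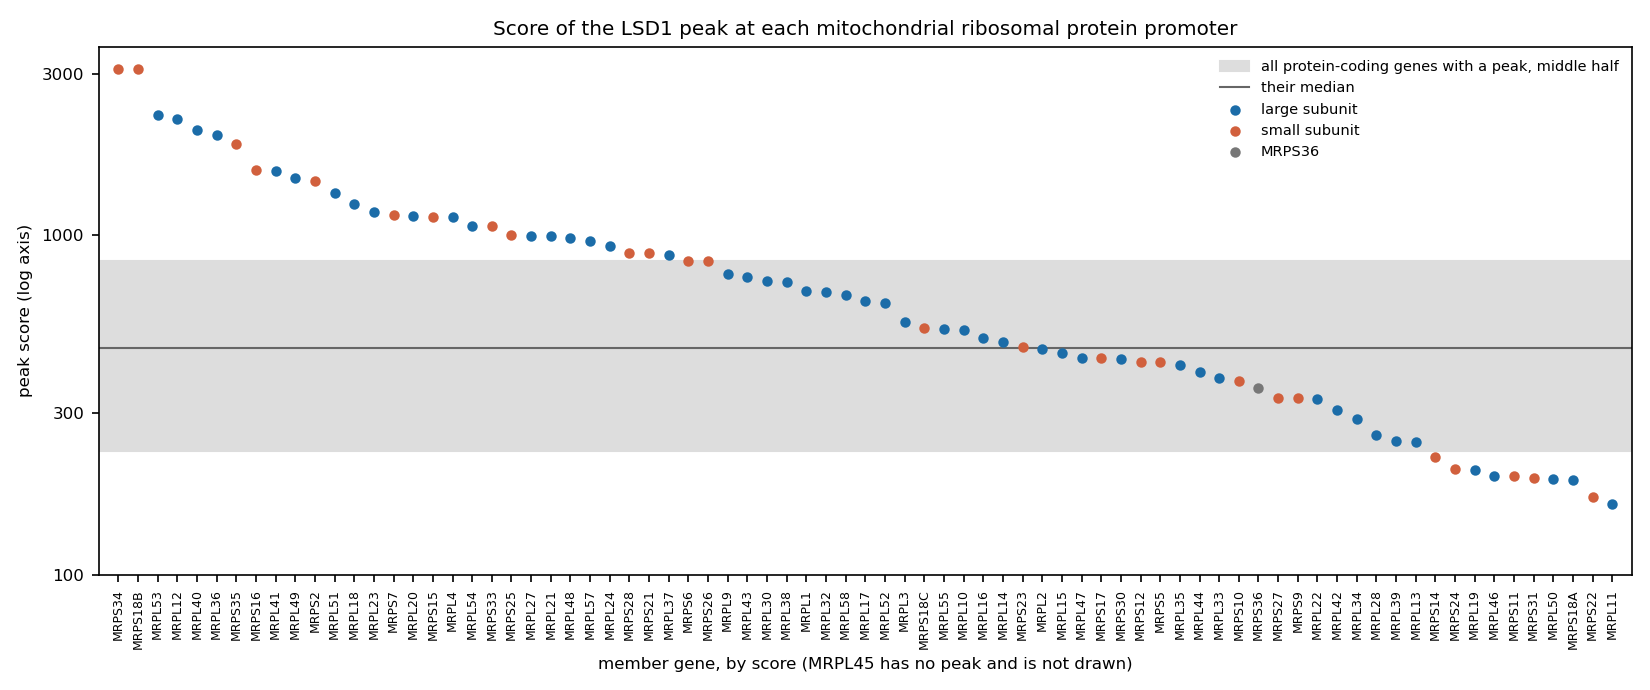
Score of the counted LSD1 peak (vertical log axis, no unit) at each of the 77 members with a peak, in order of score, coloured by ribosomal subunit; the grey band and line give the interquartile range and the median of all protein-coding genes with a peak. Scores run from 161.6 at MRPL11 to 3100 at MRPS34 and MRPS18B, with both subunits spread along the whole order.

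The highest scores were at 2 small-subunit genes whose products are counted among those particular to mitochondria. MRPS34, whose product the small subunit needs for its stability, lay under an 8104 bp peak (chr16:1817841-1825944) with a score of 3100. This peak covered the whole MRPS34 transcript and the start sites of EME2 and NME3. MRPS18B, a paralog in the human S18 family that occupies a site of its own in the mitoribosome, lay under a 7749 bp peak (chr6:30579160-30586908), also with a score of 3100. Most of that peak stood upstream of MRPS18B, over the divergent gene PPP1R10, a regulatory subunit of protein phosphatase 1. The value 3100 occurs at 206 peaks of the list and 19 exceed it, so it does not rank these peaks among themselves.

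Of the other small-subunit genes, MRPS35 followed with a score of 1864.75 in a peak of only 1890 bp, centred 25 bp from its TSS. MRPS16, a counterpart of bacterial S16, had the widest member peak, 10793 bp (chr10:75005748-75016540, score 1558.6), which also covered the start site of the chaperone gene DNAJC9. MRPS2, MRPS7 and MRPS15, all with bacterial counterparts, had scores of 1444.26, 1150.91 and 1136.36. MRPS12, the protein of the decoding centre, had 423.93, under the median of the subunit. MRPS24 (205.41), MRPS31 (192.56) and MRPS22 (169.06) were the lowest of the subunit with MRPS11 (195.37). Over the 26 small-subunit genes the median score was 686 and the median width 1786 bp.

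Large-subunit genes had a median score of 652 and a median width of 1903.5 bp over 50 peaks. MRPL53 led with 2268.58 in a 3836 bp peak (chr2:74697013-74700848) that covered its short transcript from end to end. MRPL12, the counterpart of the mobile bacterial stalk protein L7/L12, had 2203.28 (chr17:79667310-79671953). That peak also covered the start site of a coding gene given only by its identifier. The partners of MRPL12 at the stalk base were lower, with 526.81 at MRPL10 and 161.6, the lowest of all members, at MRPL11. MRPL40, a protein of the central protuberance, had 2040.22 and MRPL36, a small zinc-binding protein, had 1972.82; both promoters are printed above. The MRPL36 peak also covered the start site of NDUFS6, a subunit of respiratory complex I.

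Proteins that line the catalytic centre and the tunnel of bacterial ribosomes have counterparts with very different scores. Around the peptidyl transferase centre, MRPL27 had 995.53, MRPL3 553.83, MRPL16 499 and MRPL2 462.88. Along the tunnel, MRPL23 had 1169.5, MRPL4 1130.46 and MRPL24 930.9, while MRPL22 had 329.92 in a peak of 693 bp, the narrowest of any member. MRPL58, a peptidyl-tRNA hydrolase that rescues stalled ribosomes and became part of the large subunit, had 665.9. MRPS18A, whose product sits in the large subunit despite its name, had 189.89, and MRPL50 had 191.97.

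Lineage went with a difference in the medians that was small beside the spread. Bacterial-type members had a median score of 530 (interval 435 to 843) and a median width of 1767.5 bp (1563 to 2670) over 46 peaks. Members particular to mitochondria had 796 (432 to 1063.1) and 1998 bp (1641 to 2520) over 30 peaks. The intervals of the 2 lineages overlapped for both score and width. Higher scores went with wider peaks across the 77 members (Spearman's rho 0.69, against 0.67 across all protein-coding genes with a peak), as a description of peaks from 1 library whose depth both share.

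Peaks were centred close to the start sites. The midpoint lay a median of 75 bp downstream of the TSS (interval 25 to 163), against 61 bp downstream over all protein-coding genes with a peak, and within 500 bp of it in 63 of 77 members (81.8%), against 75.6%. In 75 of 77 members the peak reached at least 300 bp to both sides of the TSS, against 92% of all protein-coding genes with a peak. The narrowest reach upstream was 271 bp, at MRPL22, and the narrowest downstream was 421 bp, at the same gene. The midpoint lay furthest upstream at MRPL49, at position −3383 relative to the TSS, followed by MRPS18B (−2583) and MRPL43 (−853). It lay furthest downstream at MRPL23 (1914 bp), MRPL17 (1826 bp) and MRPS16 (1258 bp).

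**Figure D3:**
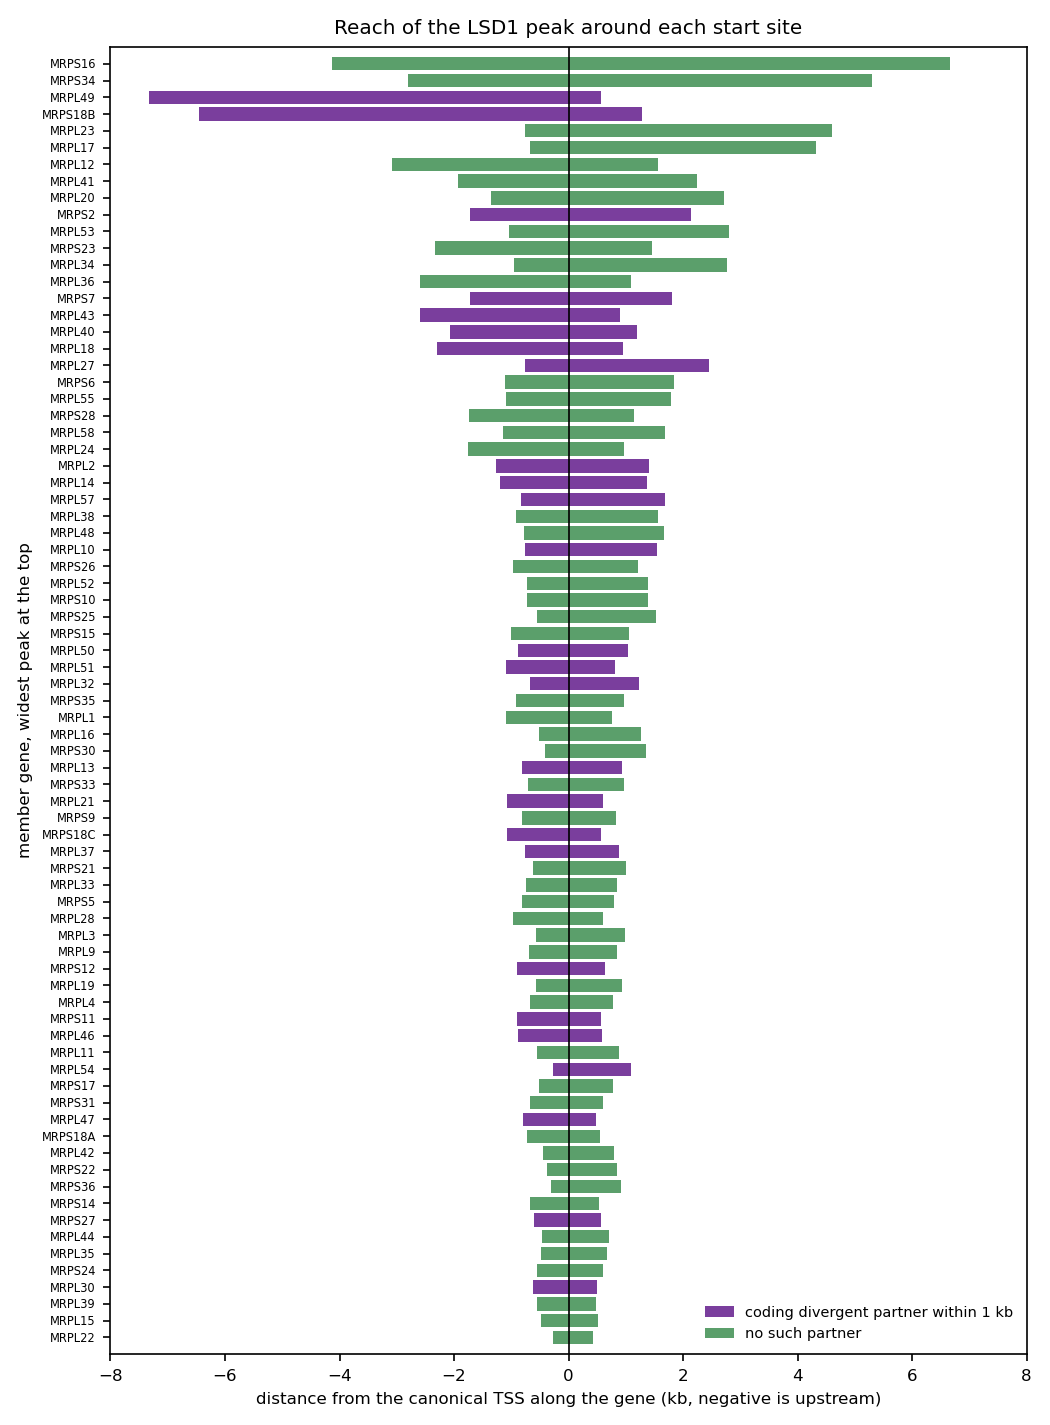
Reach of the counted LSD1 peak around the canonical TSS of each of the 77 members (horizontal axis, kb along the gene, negative is upstream), sorted by width and coloured by whether a coding gene starts divergently within 1 kb. Every bar crosses the TSS, from the 10793 bp peak of MRPS16 at the top to the 693 bp peak of MRPL22 at the bottom. The longest upstream bars, of MRPL49 and MRPS18B, belong to genes with a coding divergent partner. The next longest, of MRPS16 (4138 bp upstream) and MRPL12 (3087 bp), belong to genes without one.

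Within the gene bodies most of the sequence was free of peaks. Peaks covered a median of 14.6% of the canonical transcript, whose median length was 8411.5 bp. In 6 members the whole transcript lay under the peak, among them MRPL53, MRPL41, MRPL34 and MRPL17, whose canonical transcripts span 699, 677, 972 and 2956 bp of the genome. A second or further peak overlapped the transcript in 22 members. These transcript values were not computed over all protein-coding genes, so they describe the members and show no trait particular to them. Only MRPL54 had 2 peaks within 1 kb of its TSS, at chr19:3762406-3763766 (score 1063.28) and at chr19:3761057-3762321 (score 352.95, ending 359 bp before the TSS).

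The peaks at cytosolic ribosomal protein genes, which encode the ribosome of the cytosol, were of another shape. Of 83 such genes 78 (94%, interval 86.5 to 98) had a peak, an interval that overlaps that of the members. Their median width was 4018.5 bp and their median score 1467.8, with intervals (3089 to 6059 bp and 1195.5 to 1796.9) above those of the members. At 2 kb downstream of the TSS 17.9% of MRP genes lay under a peak, against 72.3% of cytosolic ribosomal protein genes and 10% of all protein-coding genes. At 2 kb upstream the shares were 16.7% in MRP genes, 19.3% in cytosolic ribosomal protein genes and 7.5% in all protein-coding genes. Peaks wider than 3000 bp occurred at 19 of 77 MRP genes (24.7%) and at 49 of 78 cytosolic ones (62.8%), against 20.2% of all protein-coding genes with a peak. No test was made of these differences, since all values come from 1 peak list.

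**Figure D4:**
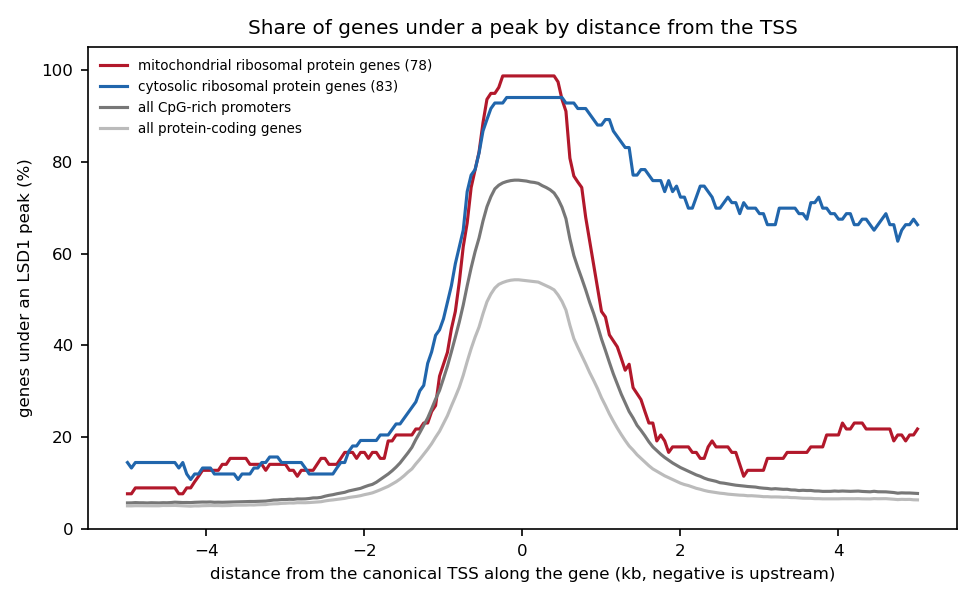
Percent of genes that lie under any LSD1 peak (vertical axis) at each distance from the canonical TSS (horizontal axis, kb along the gene, in steps of 50 bp). At the TSS the share is 98.7% for mitochondrial and 94% for cytosolic ribosomal protein genes, and at 2 kb downstream it is 17.9% and 72.3%.

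Divergent promoters were common among the members. A protein-coding gene on the opposite strand started upstream within 1 kb of 26 of 78 members (33.3%), against 9.45% of all protein-coding genes. The distance between the start sites was 192 bp at the median, from 45 bp between MRPL27 and the nuclease subunit gene EME1 to 990 bp between MRPL54 and APBA3. Counting partners of any gene type, which adds non-coding transcripts such as those beside MRPS35 and MRPS30, the number was 30 (38.5%), against 19.5%. All 26 members with a coding partner had a peak, in a class where 94.2% of all protein-coding promoters had one. Among the 52 members without such a partner 51 (98.1%) had a peak, against 51.6% of all protein-coding genes without one.

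Several partners also act in mitochondria. MRPL46 and MRPS11, of the large and the small subunit, start 320 bp apart under a single 1461 bp peak (chr15:89010038-89011498) with a score of 195.37. MRPS12 shares its promoter and its 1542 bp peak (score 423.93) with SARS2, the mitochondrial seryl-tRNA synthetase, 181 bp away. MRPL43 starts 46 bp from TWNK, the helicase that replicates mitochondrial DNA, under a peak with a score of 752.26. MRPL47 lies 156 bp from NDUFB5, a complex I subunit (435.18), MRPS27 133 bp from PTCD2, a mitochondrial RNA-binding protein (331.88), and MRPL30 126 bp from MITD1, a protein of the mitochondrial surface (732.38).

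Several other partners have tasks elsewhere in the cell. MRPL49 lies 187 bp from FAU, which encodes a ribosomal protein of the cytosol, and the midpoint of its 7885 bp peak (chr11:64882468-64890352, score 1476.37) lies on the FAU side. MRPL18 is 865 bp from the chaperonin gene TCP1, MRPL40 is 812 bp from the histone chaperone gene HIRA, and MRPL51 is 840 bp from the condensin gene NCAPD2. The remaining coding pairs, not sorted by task, were MRPS18B with PPP1R10, MRPS2 with PIERCE1, MRPS7 with GGA3, MRPL21 with IGHMBP2, MRPL57 with SKA3, MRPL37 with CYB5RL, MRPS18C with HELQ, MRPL10 with LRRC46, MRPL14 with TMEM63B, MRPL2 with KLC4, MRPL13 with MTBP, MRPL50 with ZNF189 and MRPL32 with a gene given only by its identifier. The peak of MRPL32 also covered the start site of PSMA2.

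The partner's TSS lay under the member's counted peak at 25 of the 26 genes, the exception being MRPL54, so the signal of the pair cannot be told apart. In 8 of 26 the peak's midpoint lay between both start sites. Neither count was made over all divergent promoters, so both describe the members and show no trait particular to them. The midpoint was upstream of the member's TSS in 14 of 26 members with a coding partner (53.8%) and in 12 of 51 members without one (23.5%). Over all protein-coding genes with a peak the shares ran the same way, 67.6% with a coding partner and 37% without. Counting any orientation, 31 members (40.3% of the 77) had a peak that also covered the start of another coding gene, against 24.3% of all protein-coding genes with a peak. Their median score was 875 and their median width 2557 bp, against 484 and 1638 bp for the 46 members whose peak covered no other coding start. Over all protein-coding genes with a peak the medians were 612 and 2198 bp where the peak covered another coding start, against 418 and 1882 bp where it did not.

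Among the elements searched, those of ETS factors and of YY1 were the ones in which the members stood furthest above other promoters. The search ran on both strands from 250 bp before to 50 bp after the TSS, with palindromes counted once. CCGGAAG (ETS) occurred in 32 of 78 members (41%, interval 30 to 52.7), against 14.2% of all protein-coding promoters and 21.7% of those with a peak. AAGATGGC (YY1) occurred in 22 members (28.2%, interval 18.6 to 39.5), against 4.07% of all and 6.34% of those with a peak. GCGCANGCG (NRF1) occurred in 15 members (19.2%, interval 11.2 to 29.7), against 11% and 16.9%. In the cytosolic ribosomal protein genes ETS occurred in 34.9%, within the members' interval, YY1 in 13.3% and NRF1 in 18.1%.

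The other elements were near or under the level of all promoters. GGGCGG (SP) occurred in 47 members (60.3%, against 61.4% of all protein-coding promoters), CCAAT (NFY) in 22 (28.2%, against 36%), CACGTG (E-box) in 7 (8.97%, against 8.76%) and TGACGTCA (CREB) in 1 (1.28%, against 2.68%). Peak scores with and without an element had overlapping intervals of the median for all 4 elements compared. The median was 732 (499 to 1063.1) with ETS, against 484 (396 to 875) without, and 432 (330 to 1144.6) with YY1, against 710 (499 to 890) without. It was 586 (331 to 1063.1) with NRF1, against 666 (435 to 885) without, and 673 (435 to 931) with SP, against 554 (381 to 966) without. A match is a description of sequence and shows no binding of the factor.

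**Figure D5:**
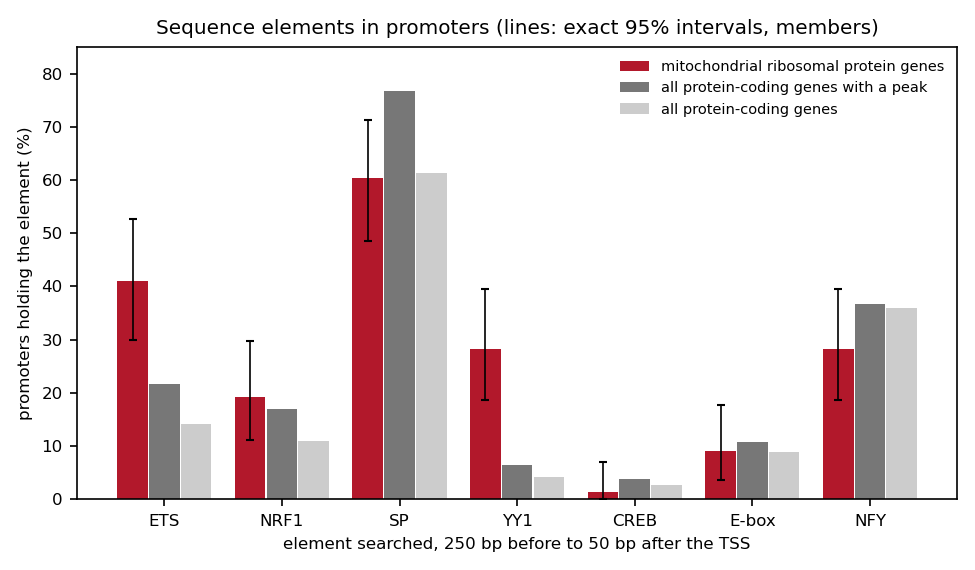
Percent of promoters that hold each of 7 sequence elements (vertical axis) in the window from 250 bp before to 50 bp after the TSS, for the 78 members (red, with exact 95% binomial intervals), all protein-coding genes with an LSD1 peak (dark grey) and all protein-coding genes (light grey). ETS (41% against 14.2% of all) and YY1 (28.2% against 4.07%) have intervals that lie above both grey bars.

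The YY1 element of these genes often coincided with the start of translation. Of its 23 matches in members, 17 (73.9%) began at or after the TSS, against 62.7% of the 840 matches in all protein-coding promoters. On the strand of the gene were 19 (82.6%), against 73.9%. In 14 matches the ATG within the element was the annotated start codon of the canonical transcript (60.9%, against 39.2% of those 840). The other 8 members with the element (10.3% of 78) held it elsewhere, against 2.45% of all protein-coding promoters. The 6 sites of members with the highest peak scores are printed as 30 bases of the GRCh37 reference on the strand that reads the element, which is in capitals. They were chosen for printing after the counts were seen.
MRPS18B (chr6:30585629-30585658, plus strand, start codon): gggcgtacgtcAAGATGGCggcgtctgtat
MRPL36 (chr5:1799968-1799997, plus strand, opposite to the gene): tgccaggaaggAAGATGGCggcgggggggg
MRPL49 (chr11:64889805-64889834, plus strand, start codon): cgtagcaggtaAAGATGGCagctaccatgt
MRPL51 (chr12:6602389-6602418, minus strand): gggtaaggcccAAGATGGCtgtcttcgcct
MRPS7 (chr17:73257968-73257997, plus strand, start codon): cgtggccagccAAGATGGCtgcccccgcag
MRPL20 (chr1:1342640-1342669, minus strand): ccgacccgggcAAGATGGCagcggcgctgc

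Nearly all other genes of mitochondrial translation had a peak as well. Over 5 lists, 63 of 64 genes had a peak (98.4%, interval 91.6 to 100), against 55.6% of all protein-coding genes. The 63 had a median score of 654 and a median width of 1877 bp. All protein-coding genes with a peak had medians of 465 and 1955 bp. Of the 64 genes, 73.4% had a CpG-rich promoter and 29.7% a coding divergent partner, against 56.6% and 9.45% of all protein-coding genes. Of all promoters in these classes, 77.1% and 94.2% had a peak. The 14 translation factor genes all had one, led by TUFM, the elongation factor that delivers tRNAs (1535.43), and MTRFR, a rescue factor (1178.06), with MTRF1, a release factor, lowest at 80.63. All 23 genes of mitoribosome assembly and rRNA modification had one, led by the GTPase gene MTG2 (1993.07) and by MTERF3 (1343.59). So did all 17 genes of mitochondrial aminoacyl-tRNA synthetases, led by YARS2 (1614.55) and WARS2 (1289.64); SARS2 has the peak of MRPS12.

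All 5 genes of mitochondrial DNA transcription had a peak too, led by TFB2M (653.8) and TFAM (564.87), and their median score was 358. Of the 5 mitoribosomal proteins with other symbols, GADD45GIP1 had 1276.6, AURKAIP1 had 1160.77, DAP3 had 818.32 and PTCD3 had 801.84. CHCHD1 had no peak within 1 kb and was the only gene of the 5 lists without one.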

How the data were processed

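LSD1 ChIP and input DNA of PC-3M-luc cells gave 1 library each. Reads came from an Illumina sequencer and were aligned with bowtie 2 to hg19, per the labels' protocols, and the submitters' processing notes name MACS 1.41. Those notes name the builds hg19 and mm10; hg19 was used. Caller settings, the threshold and read numbers are not given in the sources used here. The deposited file gives 1 score per peak, whose definition is not given in the sources used here. That the authors called peaks against the input is likewise not stated. All peaks fit within the GRCh37 chromosomes, and 0 overlap.

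Start sites came from GENCODE 44 mapped to GRCh37 (canonical transcript, 281 of 20175 coding genes without one left out), sequence from GRCh37, and coordinates are 1-based. Intervals of medians come from ranks. The members and lists were chosen with earlier results of these data known. Named genes follow a rule (extremes of score, width and offset, members without a peak or with 2, divergent pairs, leading genes of each list); members named by ribosomal role were added after their values were seen. Functions were tested on simulated data. Sequence was read with samtools 1.23.1 and pysam 0.24.0 and words were counted with numba 0.67.0. Tables used pandas 2.3.3 and numpy 2.4.6, intervals scipy 1.17.1 and plots matplotlib 3.10.9, under Python 3.11.15.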

Additional observations from a re-analysis of the deposited data

How the results depend on the processing

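No paired analysis was possible because each group had 1 library. Of 37 alternative values, 33 stayed within 1.5 times the count or within the interval of the median, 4 moved and 0 changed sign. Members with a peak numbered between 68 (score at or above the list median) and 77, also with 5 kb or any annotated TSS; requiring the midpoint within 1 kb left 71. Searching 500 bp to each side, a longer window by construction, found NRF1 in 23 members, the E-box in 15 and NFY in 49. Over all protein-coding promoters the shares in that window were 16.1%, 18.3% and 63.7%, in the same order. Peaks over no other coding TSS, an alternative chosen after seeing the data, had a median width of 1638 bp; counting each peak once (76) and the 3 alternatives for the other lists (60 to 63) were also added then. Depth is unknown, so a missing peak does not show absence of LSD1.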

Other observations

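Pseudogenes with an MRP symbol, not sorted into processed and other copies, were examined after the member counts were seen. Of 79 such pseudogenes, 4 (5.06%, exact 95% binomial interval 1.4 to 12.5) had an LSD1 peak within 1 kb of their start. The share over all pseudogenes was not counted, so nothing particular to these pseudogenes can be read from it. At MRPL42P1 and MRPL15P1 the peak covered the start of another coding gene, USP53 and MESP1. At MRPS31P5 (chr13:52768012-52769059, score 412.45) and MRPS31P4 (chr13:53191015-53192169, score 168.51) it covered no coding start. The peak of MRPS31 itself scored 192.56, and 86.8% of the 32-base words around its TSS occur once in the reference.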
